A study of Mus musculus with 18 samples.

Results

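The genes for the cytosolic chaperone HSP90 and 6 of its co-chaperones were described across wild-type (WT) and Nrf1-KO mouse fibroblasts treated with carfilzomib (CFZ). The 8 members were Hsp90aa1, Hsp90ab1, Ahsa1, Stip1, Cdc37, Chordc1, Ptges3 and Fkbp4. They were chosen by name from what their products are known to do, but with earlier results of these data known. All 8 were found among the 23420 gene rows of the count table. RNA-sequencing covered 18 libraries of NIH-3T3, an established line of immortalized mouse embryonic fibroblasts, with 3 libraries in each of 6 groups. The WT groups were cells in DMSO, the vehicle, cells in 200 nM CFZ for 6 h and cells in 200 nM CFZ for 24 h. The Nrf1-KO groups were the same treatments of a line in which Nrf1, the transcription factor encoded by Nfe2l1, had been knocked out by CRISPR/Cas9. Neither a time for DMSO nor whether the knockout line is 1 clone is given in the sources used here, so a feature of that line cannot be told apart from the loss of Nrf1. CFZ is an irreversible inhibitor of the proteasome. Each line's DMSO group served as the control for both times.

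HSP90 is an ATP-driven dimer that completes the folding of kinases, steroid receptors and other client proteins, and its co-chaperones deliver clients to it or set the pace of its cycle. In mammalian cytosol it comes from a pair of genes, Hsp90aa1, which is strongly inducible by stress, and Hsp90ab1, which is made in most cells at all times. When unfolded proteins accumulate, the transcription factor HSF1 binds heat shock elements, inverted repeats of nGAAn, and raises the genes of many chaperones.

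Total counts ranged from 8333148 to 23917081 per library (median 14419832), and all 18 libraries correlated best with another library of their own group. In every library the level of a gene is given as CPM, its reads per 1000000 counted reads after TMM scaling, a correction for differences in library composition. Nfe2l1 had 457, 437 and 449 CPM in WT DMSO and 174, 185 and 181 CPM in Nrf1-KO DMSO. Its RNA was lower in the Nrf1-KO cells than in the WT cells by 1.31 on the log2 scale in DMSO, by 0.62 at 6 h and by 1.47 at 24 h, but it was not absent, and whether the remaining RNA encodes a protein is not shown by these counts. All 9 fibroblast markers averaged at least 10 CPM, with a summed level of 8042 to 36447 CPM per library, while summed markers of leukocytes, epithelium and endothelium reached at most 5.76, 13.4 and 3.82 CPM, with Cd3e, Epcam and Krt18 at 0. CPM is a share of the RNA of many cells, so fewer cells of a kind and less RNA per cell cannot be told apart.

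RNA for most of the 8 genes had risen by 6 h of CFZ in both lines, and Hsp90aa1 rose the most. In the WT cells all 8 members were higher at 6 h than in DMSO, against 35.6% of all genes tested, and 6 of the 8 were at least 2-fold higher, against 3.98%. The Nrf1-KO cells had 7 members higher at 6 h (34.5% of all genes), each of them at least 2-fold (3.30%), and Cdc37 did not pass the test. One model of the 6 groups was fitted to the 11762 genes kept by edgeR's filter, and a gene is called higher or lower where its quasi-likelihood test gave a Benjamini-Hochberg adjusted p under 0.05. The median log2 fold change of the members at 6 h was 1.43 in the WT cells and 1.68 in the Nrf1-KO cells, beside -0.02 and -0.01 over all genes tested.

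At 24 h, 7 members were still above DMSO in the WT cells (43.2% of all genes) and 1, Fkbp4, was below it (40.5%). In Nrf1-KO cells all 8 were called higher (44.4%), although the rise of Fkbp4 there was small and depended on the scaling. In each line 5 members remained at least 2-fold above DMSO, against 10.5% of all genes in the WT cells and 11.5% in the Nrf1-KO cells, and these were Hsp90aa1, Hsp90ab1, Ahsa1, Stip1 and Chordc1. Between 6 h and 24 h, 7 members fell in the WT cells (35.4% of all genes) and 1, Cdc37, rose (36.9%). In the knockout line 6 fell (38.3%) while Cdc37 and Hsp90ab1 rose (38.7%). The plot of the levels by library shows that most members peaked at 6 h, while Cdc37 in both lines and Hsp90ab1 in the Nrf1-KO cells were highest at 24 h.

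**Figure D1:**
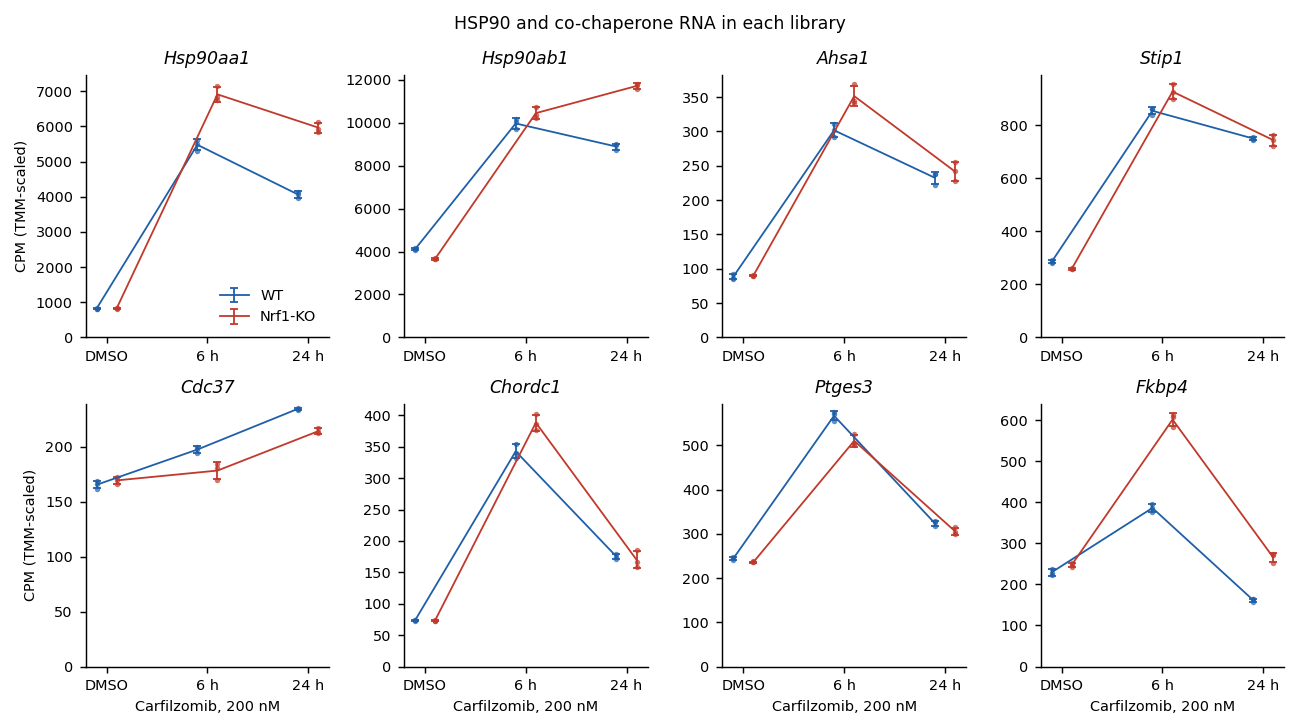
RNA level of each of the 8 genes in every library, in TMM-scaled CPM on a linear axis from 0, by treatment (DMSO, 6 h and 24 h of 200 nM CFZ) in WT (blue) and Nrf1-KO cells (red). Points are libraries and lines join group means with bars of 1 SD (n = 3), and Hsp90aa1 went from 828 in Nrf1-KO DMSO to 6911 CPM after 6 h, while the group means of Cdc37 stayed between 166 and 235 CPM.

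Hsp90aa1 (chr12:110690605-110702728, minus strand, GRCm38) encodes the stress-inducible HSP90 alpha. The WT libraries stood at 799, 841 and 815 CPM in DMSO, 5619.8, 5500.3 and 5311 CPM after 6 h of CFZ and 3972, 4147 and 4067 CPM after 24 h. The Nrf1-KO libraries stood at 827, 815 and 843 CPM in DMSO, 6827, 6748 and 7157 CPM after 6 h of CFZ and 5841, 5938 and 6118 CPM after 24 h. The DMSO libraries of both lines overlapped and every CFZ library lay far above them, with the Nrf1-KO libraries above the WT libraries at each time. The rise over DMSO was 6.69-fold at 6 h and 4.96-fold at 24 h in the WT cells, a log2 fold change of 2.74 ± 0.035 (SE, adjusted p = 4.0e-33) and 2.31 ± 0.035 (SE, adjusted p = 6.2e-32). Nrf1-KO cells gave 8.34-fold and 7.20-fold, a log2 fold change of 3.06 ± 0.036 (SE, adjusted p = 4.1e-34) and 2.85 ± 0.036 (SE, adjusted p = 2.5e-34). Between 6 h and 24 h the level fell by 0.43 on the log2 scale in the WT cells and by 0.21 in the Nrf1-KO cells. Ordered by mean, the groups ran from Nrf1-KO at 6 h through Nrf1-KO at 24 h, WT at 6 h and WT at 24 h to the DMSO groups, and only the DMSO groups overlapped with their neighbour. Of the stretches of 1 read's length in its longest coding transcript, 41.3% also occur in another annotated gene (Gm12346, Gm5511 or Gm5844), and the count table used here has no row under those names, so how reads common to them were counted is not known.

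Hsp90ab1 (chr17:45567775-45573271, minus strand, GRCm38) encodes HSP90 beta, the constitutive form. Its levels in WT libraries were 4151, 4057 and 4095 CPM in DMSO, 10186, 10024 and 9693 CPM after 6 h of CFZ and 8726, 8994 and 8944 CPM after 24 h. Those in Nrf1-KO libraries were 3695, 3629.9 and 3648 CPM in DMSO, 10219, 10383 and 10739.8 CPM after 6 h of CFZ and 11578, 11757 and 11809 CPM after 24 h. No groups next to each other in the order of means overlapped, and the highest libraries were those of the Nrf1-KO cells at 24 h, whereas in the WT cells the 6 h libraries were highest. The log2 fold change over DMSO was 1.28 ± 0.031 (SE, adjusted p = 2.7e-26) at 6 h and 1.12 ± 0.030 (SE, adjusted p = 2.9e-25) at 24 h in the WT cells, and 1.51 ± 0.031 (SE, adjusted p = 4.1e-28) and 1.68 ± 0.031 (SE, adjusted p = 6.0e-30) in the Nrf1-KO cells. From 6 h to 24 h Hsp90ab1 fell by 0.17 on the log2 scale in the WT cells (adjusted p = 1.2e-05) and rose by 0.17 in the Nrf1-KO cells (adjusted p = 1.1e-05). In DMSO it was lower in the Nrf1-KO cells than in the WT cells by 0.17 (adjusted p = 2.6e-05) and at 24 h it was higher by 0.40 (adjusted p = 2.8e-13). At 6 h the difference between the lines was 0.07 ± 0.030 (SE, adjusted p = 0.051), which missed the threshold although the libraries did not overlap, and it passed under 7 of 25 alternatives.

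The pair of HSP90 genes together took 0.515% ± 0.00218 (SD, n = 3) of all counted reads in WT DMSO and 0.485% ± 0.00213 in Nrf1-KO DMSO. At 6 h of CFZ the share was 1.47% ± 0.0303 in the WT cells and 1.74% ± 0.0491 in the Nrf1-KO cells. At 24 h it was 1.26% ± 0.0179 and 1.68% ± 0.0159, so the libraries of the lines lay apart at both times, the Nrf1-KO libraries being higher. Per kb of the longest coding transcript, Hsp90ab1 ranked 14 in WT DMSO among 10762 genes with a length, 2 at 6 h and 5 at 24 h. Hsp90aa1 ranked 201, 15 and 33 in the WT groups in the same order, and 201, 5 and 21 in the Nrf1-KO groups.

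The make-up of the pair shifted towards the inducible gene. Per kb, Hsp90aa1 made up 13.3% ± 0.428 of the level of the pair in WT DMSO, 29.7% ± 0.0760 at 6 h and 26.0% ± 0.150 at 24 h (SD, n = 3). Its share in the Nrf1-KO groups was 14.8% ± 0.222, 33.7% ± 0.340 and 28.1% ± 0.303. Hsp90ab1 therefore stayed the larger part in every library, as counted. Of the stretches of 1 read's length, 41.3% of those of Hsp90aa1 and 0.0% of those of Hsp90ab1 occur in another gene. The shares and ranks of Hsp90aa1 therefore carry the doubt over how such reads were counted. The log2 ratio of Hsp90aa1 to Hsp90ab1 counts, which needs no scaling between libraries, differed from DMSO by 1.46 at 6 h and 1.20 at 24 h in the WT cells. For the Nrf1-KO cells the differences were 1.55 and 1.17. It was also higher in the Nrf1-KO cells than in the WT cells, by 0.18 in DMSO and, under CFZ, by 0.27 at 6 h and 0.16 at 24 h. For each of these comparisons the 3 libraries of one group lay apart from the 3 of the other, and the 2-sided exact permutation test gave p = 0.1, the smallest value that 3 against 3 libraries allow. The plot of the HSP90 pair shows both measures by library.

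**Figure D2:**
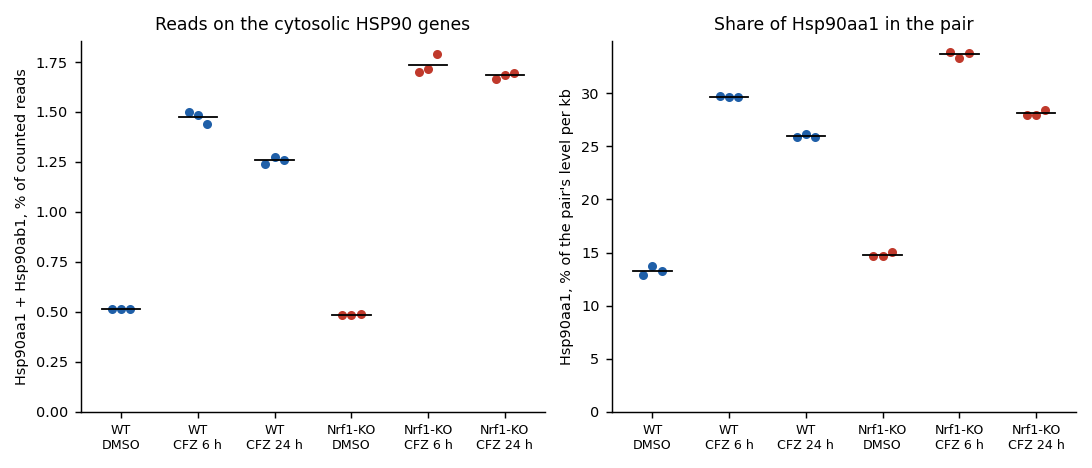
Left, percent of all counted reads on Hsp90aa1 and Hsp90ab1 together in each library, and right, percent of the pair's level per kb that came from Hsp90aa1. Points are the 3 libraries of each group (WT blue, Nrf1-KO red) and lines their means on axes from 0. The HSP90 share of reads ranged from 0.512 to 0.516% in WT DMSO and from 1.67 to 1.70% in Nrf1-KO cells at 24 h.

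Ahsa1 (chr12:87266479-87273998, plus strand, GRCm38) encodes AHA1, which stimulates the ATPase of HSP90. Its WT libraries spanned 85.7 to 92.6 CPM in DMSO, 291 to 311 CPM after 6 h and 222 to 238 CPM after 24 h. Its Nrf1-KO libraries spanned 89.6 to 91.0 CPM, 341 to 369 CPM and 227 to 255 CPM in the same order. The lines overlapped in DMSO and at 24 h and lay apart at 6 h, where the Nrf1-KO libraries were higher by 0.22 ± 0.040 (SE, adjusted p = 2.0e-05) on the log2 scale. The rise over DMSO at 6 h was 1.77 ± 0.043 (SE, adjusted p = 4.7e-26) in the WT cells and 1.96 ± 0.043 (SE, adjusted p = 3.4e-27) in the Nrf1-KO cells, and at 24 h it was 1.40 ± 0.044 (SE) and 1.42 ± 0.043 (SE).

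Stip1 (chr19:7020702-7039967, minus strand, GRCm38) encodes HOP, the adaptor that holds HSP70 and HSP90 together while a client passes between them. Its WT libraries spanned 281 to 291 CPM in DMSO, 840.5 to 863 CPM after 6 h and 744 to 758 CPM after 24 h. Its Nrf1-KO libraries spanned 256 to 264 CPM, 899.6 to 957 CPM and 724 to 765 CPM in the same order. Nrf1-KO libraries lay below WT libraries in DMSO, above them at 6 h and among them at 24 h. The log2 fold change over DMSO was 1.58 ± 0.033 (SE, adjusted p = 7.9e-28) at 6 h and 1.40 ± 0.033 (SE, adjusted p = 6.8e-27) at 24 h in the WT cells, beside 1.84 ± 0.033 (SE, adjusted p = 2.1e-29) and 1.52 ± 0.033 (SE, adjusted p = 6.0e-28) in the Nrf1-KO cells. Of all pairs of members, Ahsa1 and Stip1 had the most alike levels over the 6 group means (Pearson r = 0.992), a description over 6 points that share their libraries and scaling.

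Cdc37, Chordc1 and Fkbp4 are the members whose promoter window held a pair of heat shock units, and the stretch from 200 bases before to 20 bases from the RefSeq start is shown for each, because their responses at 6 h ran from the smallest of the 8 members to the largest but 1. The sequences are from RefSeq on GRCm38.p6, 5' to 3' on the gene's strand, with every match to GAANNTTC or TTCNNGAA in capitals (chr9:18292067-18292286, plus strand, for Chordc1, chr6:128438637-128438856, minus strand, for Fkbp4, and chr9:21149915-21150134, minus strand, for Cdc37).
Chordc1: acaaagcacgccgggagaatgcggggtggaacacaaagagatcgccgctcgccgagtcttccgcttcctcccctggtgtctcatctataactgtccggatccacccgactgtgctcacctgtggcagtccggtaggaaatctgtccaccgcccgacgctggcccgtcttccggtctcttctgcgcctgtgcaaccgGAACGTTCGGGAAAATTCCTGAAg
Fkbp4: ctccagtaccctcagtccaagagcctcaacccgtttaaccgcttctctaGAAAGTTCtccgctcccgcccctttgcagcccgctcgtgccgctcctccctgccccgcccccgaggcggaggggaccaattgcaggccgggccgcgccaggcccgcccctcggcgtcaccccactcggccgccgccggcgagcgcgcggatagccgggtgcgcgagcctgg
Cdc37: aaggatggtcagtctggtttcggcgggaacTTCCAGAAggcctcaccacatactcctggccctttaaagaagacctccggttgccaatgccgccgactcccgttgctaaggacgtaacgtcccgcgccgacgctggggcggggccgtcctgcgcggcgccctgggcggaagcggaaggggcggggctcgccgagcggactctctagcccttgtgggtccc

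A RefSeq window of 300 bases (250 before the start and 50 from it) was searched on both strands for 6 of the 8 members, Hsp90aa1 and Hsp90ab1 not being among them. Of the 6, only Chordc1 held 3 units in a row, the same pair extended by a further inverted unit after 2 bases, which occurred in 0.603% of the 32851 windows of the table. Its first such match began 4 bases before the start and its last ended at position 18, counting the first transcribed base as 0. These matches overlap each other. A further pair in Chordc1, TTCCGGAA, stood at positions 33 to 40, beyond the stretch shown. In GENCODE this gene starts at 18292125, ahead of the RefSeq start, so by that annotation the matches lie inside the gene. A pair of units occurred in Cdc37, Chordc1 and Fkbp4 and in 15.1% of all windows. The antioxidant response element is the kind of element that Nrf1 binds. A loose form of its core, TGANNNNGC, with every base between TGA and GC left free, occurred in Ahsa1, Stip1 and Ptges3 and in 41.3% of all windows. The letters were TGAGAGAGC in Ahsa1, TGAGCAGGC in Stip1, and GCGTGCTCA and GCTGCGTCA, on the opposite strand, in Ptges3. Stricter forms of the core were not searched. In GENCODE Ahsa1 starts at 87266479, and the stretch of its window from 87266528 to 87266747 lies inside the gene. The match of Ahsa1 to the loose core, at positions -138 to -130, falls in that stretch. Bases ahead of that gene start were thus barely searched, and absence of heat shock units there is not shown. The RefSeq and GENCODE starts of the other members searched differed too. A match is a run of letters and not a measured binding site.

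Cdc37 (chr9:21133222-21149982, minus strand, GRCm38) encodes the adaptor that brings protein kinases to HSP90. WT libraries held 169, 166 and 162 CPM in DMSO, 198, 194 and 200.4 CPM after 6 h of CFZ and 235, 234 and 236 CPM after 24 h. Nrf1-KO libraries held 169.9, 172 and 166 CPM in DMSO, 169.9, 181 and 184 CPM after 6 h of CFZ and 212, 213 and 217 CPM after 24 h. Cdc37 changed little beside the other members, and it was highest at 24 h in both lines, with the WT libraries above the Nrf1-KO libraries at both times of CFZ. The log2 fold change was 0.26 ± 0.034 (SE, adjusted p = 5.4e-08) at 6 h and 0.50 ± 0.033 (SE, adjusted p = 3.7e-15) at 24 h in the WT cells. Among Nrf1-KO cells it was 0.07 ± 0.034 (SE, adjusted p = 0.059) at 6 h, where the libraries overlapped with DMSO, and 0.34 ± 0.033 (SE, adjusted p = 4.0e-11) at 24 h. The 6 h value in the Nrf1-KO cells passed the threshold without replicate 1 of that group (0.11, adjusted p = 0.010) and had the opposite sign with upper-quartile scaling or library size alone.

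Chordc1 (chr9:18292125-18317442, plus strand, GRCm38) encodes CHP-1, also called morgana, a CHORD-domain protein that binds HSP90. In WT libraries Chordc1 stood at 73.7, 74.2 and 71.9 CPM in DMSO, 341, 355 and 333 CPM after 6 h of CFZ and 171, 179.9 and 174 CPM after 24 h. In Nrf1-KO libraries it stood at 72.6, 73.3 and 74.6 CPM in DMSO, 386, 377 and 402 CPM after 6 h of CFZ and 159, 166 and 185 CPM after 24 h. All 6 h libraries were far above the 24 h libraries, and the 24 h libraries were above DMSO, with the lines overlapping in DMSO and at 24 h. The rise was 4.68-fold at 6 h in the WT cells and 5.27-fold in the Nrf1-KO cells, a rise below that of Hsp90aa1 and above those of the other members in each line. On the log2 scale this was 2.23 ± 0.043 (SE, adjusted p = 1.5e-28) and 2.40 ± 0.043 (SE, adjusted p = 2.0e-29). From 6 h to 24 h Chordc1 fell by 0.97 in the WT cells and by 1.19 in the Nrf1-KO cells, which left it 2.39-fold and 2.31-fold above DMSO.

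Ptges3 (chr10:128058954-128077272, plus strand, GRCm38) encodes p23, which binds HSP90 in its closed, ATP-bound state. Its WT libraries spanned 240.4 to 247 CPM in DMSO, 555 to 575 CPM after 6 h and 317 to 329 CPM after 24 h. Its Nrf1-KO libraries spanned 235 to 237 CPM, 501 to 525 CPM and 299 to 315 CPM in the same order. The Nrf1-KO libraries lay below the WT libraries in each treatment, and the difference passed the test at 6 h (log2 difference -0.15 ± 0.031, SE, adjusted p = 9.8e-05) and at 24 h (-0.08 ± 0.032, SE, adjusted p = 0.021) but not in DMSO (-0.05 ± 0.032, SE, adjusted p = 0.21). The 24 h difference was lost under 11 of the 25 alternatives. Over DMSO, Ptges3 rose by 1.21 ± 0.032 (SE, adjusted p = 3.9e-25) at 6 h and 0.41 ± 0.032 (SE, adjusted p = 4.3e-13) at 24 h in the WT cells, and by 1.11 ± 0.032 (SE, adjusted p = 8.2e-24) and 0.37 ± 0.032 (SE, adjusted p = 3.0e-12) in the Nrf1-KO cells. Ptges3 shares 19.0% of its stretches of 1 read's length with Ptges3-ps, Ahsa1 shares 8.22% with Gm49207 and Stip1 shares 2.02% with Cfap20. Their counts therefore carry the same kind of doubt as those of Hsp90aa1.

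Fkbp4 (chr6:128429735-128438677, minus strand, GRCm38) encodes FKBP52, an immunophilin that joins HSP90 in complexes with steroid receptors, and of the members it differed most between the lines under CFZ. Levels of Fkbp4 in WT libraries were 228, 238 and 223 CPM in DMSO, 396, 376 and 387 CPM after 6 h of CFZ and 164, 164 and 158 CPM after 24 h. Its Nrf1-KO levels were 253, 248 and 243 CPM in DMSO, 583, 608 and 612 CPM after 6 h of CFZ and 252, 271 and 273 CPM after 24 h. At 24 h the WT libraries were below their DMSO level, whereas the Nrf1-KO libraries were at about theirs, and at each time of CFZ every Nrf1-KO library was above every WT library. The log2 fold change was 0.75 ± 0.036 (SE, adjusted p = 4.0e-18) at 6 h and -0.51 ± 0.038 (SE, adjusted p = 1.0e-13) at 24 h for WT, and for Nrf1-KO 1.28 ± 0.036 (SE, adjusted p = 3.3e-24) at 6 h. At 24 h the Nrf1-KO value was 0.10 ± 0.036 (SE, adjusted p = 0.012), with libraries that overlapped with DMSO. That last value turned to -0.0093 with upper-quartile scaling and to -0.083 with library size alone, which called it lower (adjusted p = 0.032), and the call was lost when any of 7 single libraries was left out (WT DMSO replicate 1, any WT 6 h replicate, Nrf1-KO DMSO replicate 3 or Nrf1-KO 24 h replicate 2 or 3, with log2 fold changes of 0.048 to 0.080). In DMSO Fkbp4 was higher in the Nrf1-KO cells by 0.11 ± 0.036 (SE, adjusted p = 0.011), a call that was lost without WT DMSO replicate 3 (0.088, adjusted p = 0.078). The difference between the lines was 0.64 ± 0.035 (SE, adjusted p = 3.1e-16) at 6 h and 0.72 ± 0.038 (SE, adjusted p = 3.7e-17) at 24 h.

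**Figure D3:**
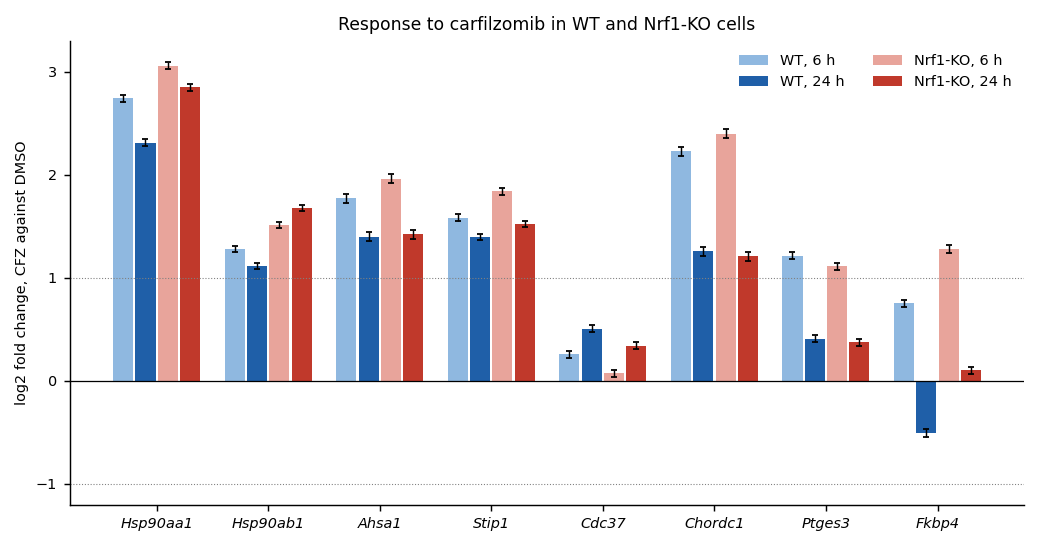
Log2 fold change of CFZ against DMSO for each of the 8 genes in WT cells (blue) and Nrf1-KO cells (red), at 6 h (light) and 24 h (dark), with bars of 1 standard error from edgeR's fit and dotted lines at 2-fold. Fkbp4 was -0.51 in WT cells at 24 h and 0.10 in Nrf1-KO cells, and the largest value was 3.06, of Hsp90aa1 in Nrf1-KO cells at 6 h.

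In DMSO the lines differed little in these genes. Of the 8, 1 member, Fkbp4, was higher in the Nrf1-KO cells (25.7% of all genes) and 2 were lower, Hsp90ab1 and Stip1 (29.1%), with a range of -0.17 to 0.11 on the log2 scale. At 6 h of CFZ, 5 members, Hsp90aa1, Ahsa1, Stip1, Chordc1 and Fkbp4, were higher in the Nrf1-KO cells (30.5%) and Cdc37 and Ptges3 were lower (30.8%). At 24 h Hsp90aa1, Hsp90ab1 and Fkbp4 were higher (35.6%) and Cdc37 and Ptges3 lower (36.4%). These 3 of 8 and 2 of 8 at 24 h were near the share of all genes called, and so were the 2 of 8 lower in DMSO and the 2 of 8 lower at 6 h.

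Whether the response to CFZ differed between the lines was tested by the interaction of genotype and CFZ, the log2 response of the Nrf1-KO cells minus that of the WT cells. At 6 h it was positive for 6 of the 8 members, against 19.8% of all genes, and negative for 1, Cdc37, against 18.4%. At 24 h it was positive for 4 members (29.7%) and negative for Cdc37 (30.0%). Fkbp4 had the largest difference at both times, 0.53 ± 0.051 (SE, adjusted p = 5.4e-10) at 6 h and 0.61 ± 0.052 (SE, adjusted p = 1.7e-11) at 24 h. Hsp90aa1 rose more in the Nrf1-KO cells by 0.32 ± 0.047 (SE, adjusted p = 2.2e-06) at 6 h and 0.54 ± 0.047 (SE, adjusted p = 2.4e-11) at 24 h, and Hsp90ab1 by 0.23 ± 0.043 (SE, adjusted p = 4.8e-05) and 0.56 ± 0.043 (SE, adjusted p = 7.3e-13). Stip1 gave 0.25 ± 0.046 (SE, adjusted p = 4.3e-05) at 6 h and 0.13 ± 0.046 (SE, adjusted p = 0.02) at 24 h, and the second of these was lost with library size alone (0.048, adjusted p = 0.39) and without WT DMSO replicate 2 (0.11, adjusted p = 0.054).

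Cdc37 gave -0.18 ± 0.048 (SE, adjusted p = 0.0028) at 6 h and -0.16 ± 0.047 (SE, adjusted p = 0.0031) at 24 h, both negative. Ahsa1 differed at 6 h (0.19 ± 0.061, SE, adjusted p = 0.014) and gave 0.02 ± 0.061 (SE, adjusted p = 0.75) at 24 h. Chordc1 gave 0.17 ± 0.061 (SE, adjusted p = 0.026) and -0.05 ± 0.063 (SE, adjusted p = 0.51), and Ptges3 -0.10 ± 0.045 (SE, adjusted p = 0.068) and -0.03 ± 0.046 (SE, adjusted p = 0.53). The 6 h calls of Ahsa1 and Chordc1 rested on single libraries. Ahsa1 ranged from 0.14 to 0.16 (adjusted p from 0.052 to 0.097) when WT DMSO replicate 2 or WT 6 h replicate 2 or 3 was left out. Chordc1 ranged from 0.12 to 0.16 (adjusted p from 0.056 to 0.14) when WT DMSO replicate 1 or 2, WT 6 h replicate 1 or 3, Nrf1-KO 6 h replicate 3 or Nrf1-KO 24 h replicate 2 was. In the plot of the interactions, Hsp90aa1, Hsp90ab1 and Fkbp4 stand apart from the other members at 24 h.

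A minimum change of 2-fold left fewer of these calls. From 6 h to 24 h, 1 member of the WT cells, Fkbp4, fell by that much (6.92% of all genes) and none rose (5.16%), and in the knockout line 2 fell, Chordc1 and Fkbp4 (9.22%), and none rose (6.56%). At 6 h no member was 2-fold lower than DMSO in WT cells (5.65% of all genes) or in Nrf1-KO cells (4.26%), nor at 24 h (14.5% and 15.2%). Between the lines no member differed 2-fold in DMSO (3.20% of all genes higher and 1.77% lower), after 6 h (4.31% and 3.00%) or after 24 h (6.71% and 5.53%). No response differed 2-fold between the lines either, whether at 6 h (1.21% and 1.57%) or at 24 h (4.07% and 4.53%).

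**Figure D4:**
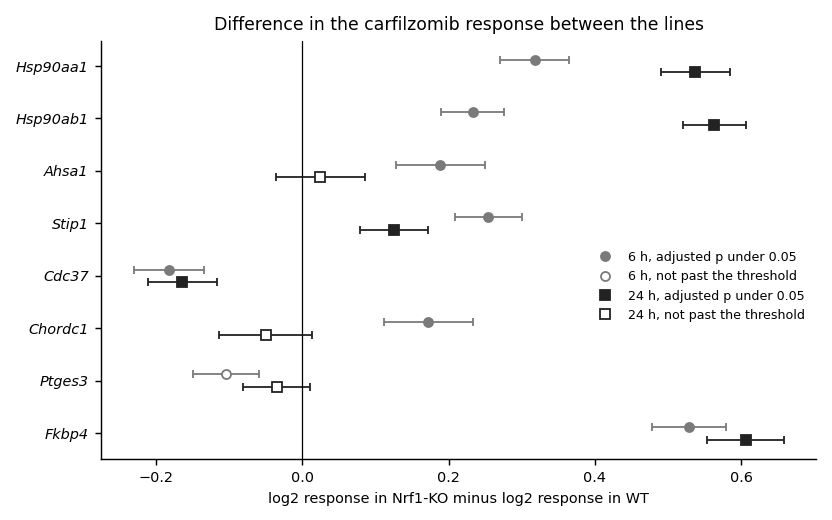
Interaction of genotype and CFZ for the 8 genes, as the log2 response in Nrf1-KO cells minus that in WT cells, at 6 h (grey circles) and 24 h (black squares), with bars of 1 standard error and filled symbols where the adjusted p was under 0.05. At 24 h Hsp90aa1, Hsp90ab1 and Fkbp4 lie at 0.54, 0.56 and 0.61, and the other members between -0.16 and 0.13.

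Other genes of the HSP90 machinery moved less uniformly. The list held 27 genes, the HSP90 paralogues of the endoplasmic reticulum and mitochondria and further co-chaperones, of which 26 were tested. WT cells had 17 of them higher and 6 lower at 6 h (35.6% and 36.2% of all genes), then 22 higher and 4 lower at 24 h (43.2% and 40.5%). Nrf1-KO cells had 14 higher and 9 lower at 6 h (34.5% and 35.0%), the 9 lower being near the share of all genes. At 24 h they had 18 higher and 6 lower (44.4% and 41.1%). No member was lower at 6 h in either line, or at 24 h in the Nrf1-KO cells. Their median log2 fold change at 24 h was 0.62 and 0.44, beside 0.02 and 0.03 over all genes and 1.19 and 1.32 over the members.

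Ppid, the cyclophilin CYP40 of steroid receptor complexes, rose by 2.11 ± 0.052 (SE) on the log2 scale at 24 h in the WT cells and by 2.04 ± 0.050 (SE) in the Nrf1-KO cells. Ahsa2, a relative of Ahsa1, rose by 1.93 ± 0.046 (SE) and 2.33 ± 0.045 (SE), and Cacybp by 1.26 ± 0.044 (SE) and 0.95 ± 0.044 (SE). Fkbp5, which encodes FKBP51, the immunophilin that competes with FKBP52 for HSP90, changed by -1.48 ± 0.065 (SE) and -0.98 ± 0.060 (SE). Like its relative Fkbp4, it was below DMSO in the WT cells at 24 h. Unlike Fkbp4, which rose at 6 h in both lines, it was also below DMSO then (-0.41 in the WT cells and -0.32 in the Nrf1-KO cells). Stub1, which encodes the ubiquitin ligase CHIP, changed by -0.82 ± 0.040 (SE) and -1.03 ± 0.039 (SE), and Pih1d1, of the R2TP complex, by -1.12 ± 0.093 (SE) and -1.06 ± 0.085 (SE).

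The interaction at 24 h was positive for 4 (29.7% of all genes) and negative for 15 (30.0%) of the 26, with a median of -0.20, whereas the members had a median of 0.07 and all genes 0.00. The largest positive values were those of Fkbp5 at 0.50 ± 0.090 (SE), Ahsa2 at 0.40 ± 0.065 (SE) and Unc45a, a myosin co-chaperone, at 0.18 ± 0.069 (SE). The call of Unc45a was lost with library size alone (0.10, adjusted p = 0.21), with DESeq2 (0.18, adjusted p = 0.053) and without WT DMSO replicate 1, WT 24 h replicate 2 or 3 or Nrf1-KO DMSO replicate 3 (0.12 to 0.17). Hsp90b1, the HSP90 paralogue of the endoplasmic reticulum, gave 0.13 (adjusted p = 0.012) and was named after its value was seen. The largest negative values were those of Trap1, the mitochondrial HSP90, at -0.75 ± 0.048 (SE), Aarsd1 at -0.71 ± 0.084 (SE) and Ruvbl1, an ATPase of the R2TP complex, at -0.47 ± 0.068 (SE).

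Genes of the wider heat shock response mostly rose, and by more than the members at the median. Of 17 genes, 16 were tested, and all 16 were higher at 6 h in the WT cells (35.6% of all genes) and in the Nrf1-KO cells (34.5%). At 24 h 15 were higher in the WT cells (43.2%) and 16 in the Nrf1-KO cells (44.4%), with median log2 fold changes of 1.54 and 1.83. The small heat shock protein Cryab had the largest rise at 24 h, 4.75 ± 0.044 (SE) in the WT cells and 5.21 ± 0.045 (SE) in the Nrf1-KO cells, followed by the constitutive HSP70 gene Hspa8 at 3.09 ± 0.039 (SE) and 3.59 ± 0.040 (SE). Hsf2, a heat shock factor, rose by 2.16 ± 0.042 (SE) in the WT cells, and Hspa1b, an inducible HSP70 gene, by 3.43 ± 0.044 (SE) in the Nrf1-KO cells. The interaction at 24 h was positive for 10 of the 16 (29.7% of all genes) and negative for 5 (30.0%), the second being near the share of all genes. It was largest for Hspa1b at 1.89 ± 0.072 (SE), Hspa1a at 1.87 ± 0.25 (SE) and the HSP40 gene Dnajb1 at 1.18 ± 0.065 (SE), and most negative for Hsf2 at -0.55 ± 0.063 (SE), Hsf1 at -0.42 ± 0.059 (SE) and Hspa4l at -0.28 ± 0.043 (SE). Hspa1a and Hspa1b are near-identical, so the split of reads between them is uncertain.

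**Figure D5:**
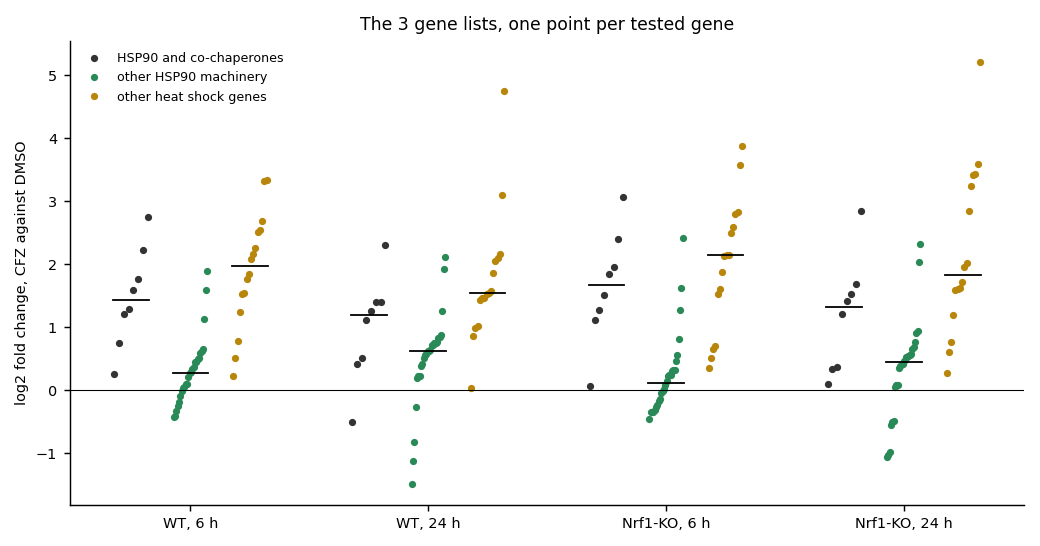
Log2 fold change of CFZ against DMSO for every tested gene of 3 lists, the 8 members (black), 26 other HSP90 machinery genes (green) and 16 other heat shock genes (gold), in each line and time. Points are genes in order of value and lines are medians. The medians at 24 h were 1.19, 0.62 and 1.54 in WT cells and 1.32, 0.44 and 1.83 in Nrf1-KO cells.

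Among 4122 other genes averaging at least 50 counts and with a range of group means of at least 1 on the log2 scale, 4 of the 5 whose levels followed the mean standardised profile of the members most closely were Jmjd6, Bag3, Naa16 and Tnfrsf10b, with Pearson r over the 6 group means of 0.998, 0.994, 0.989 and 0.988. Bag3, an HSP70 co-chaperone, had log2 fold changes of 1.58 and 1.63 at 24 h in the WT and Nrf1-KO cells. These r values describe 6 points from shared libraries. Among the members themselves r ranged from -0.374 for Cdc37 with Fkbp4 to 0.992.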

How the data were processed

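RNA was sequenced from 18 libraries of the WT and Nrf1-KO lines, 3 in each of 6 groups taken from the sample labels, and each column was assigned by its name. Per the study's methods, libraries were prepared with a stranded mRNA kit, and reads were sequenced in pairs and run through RNA Express, which joins STAR and DESeq2. The authors deposited raw counts for 23420 gene symbols (6577 of them 0 throughout). The build, the annotation, the use of strand and the tools' versions are not given in the sources used here, so reads of overlapping or near-identical genes may be assigned in ways that cannot be checked. In GENCODE M21 on GRCm38, the source of positions and lengths (the longest coding transcript), no exon of a member is overlapped from the other strand. On the same strand, Gm47293 overlaps 1.74% of the exon bases of Ahsa1. For the ratio of Hsp90aa1 to Hsp90ab1, 0.5 was added to each count.

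The deposited counts were filtered (minimum count 10, minimum total 15), TMM-scaled and fitted in a quasi-likelihood model of the 6 groups by edgeR 4.0.16 under R 4.3.3, and p-values were adjusted by Benjamini-Hochberg across 11762 genes. A standard error is the size of a log2 fold change divided by the square root of F. The method was tested on simulated data. Replicates varied with a common biological coefficient of 3.13%, which lets small differences pass. The chi-square per degree of freedom between replicates was 1.438 to 8.469, so no replicates agreed within sampling noise. The study's figure legend calls the replicates biological, and p-values measure the spread between these libraries.

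The members and lists were chosen with earlier results of these data known. Genes named outside the members are Nfe2l1, the 3 largest and 3 smallest called changes of each other list at 24 h in each line and in the interaction, and the 5 genes most alike, of which 1 is not reported here. As alternatives, scaling by library size alone or by the upper quartile was tried, and so were DESeq2 1.42.0, no expression filter, a mean count of at least 10, a fit restricted to the compared groups, a block for the replicate number, leaving out each library, a minimum fold of 2 for counts and, for the ratio, no pseudocount.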

Additional observations from a re-analysis of the deposited data

Results flagged for a closer look

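The response to CFZ differed between the lines for 7 of the 8 genes at 6 h and for 5 at 24 h, by edgeR's quasi-likelihood test of the interaction itself. At 6 h it was positive for 6 (19.8% of all genes) and negative for 1 (18.4%), and at 24 h positive for 4 (29.7%) and negative for 1 (30.0%), so with both directions together the 5 of 8 at 24 h were near the share of all genes. On the log2 scale, as the Nrf1-KO response minus the WT response, the values at 6 h were 0.53 for Fkbp4, 0.32 for Hsp90aa1, 0.25 for Stip1, 0.23 for Hsp90ab1, 0.19 for Ahsa1, 0.17 for Chordc1 and -0.18 for Cdc37. The 6 h calls of Ahsa1 and Chordc1 were both lost without WT DMSO replicate 2 (0.15 and 0.16) or WT 6 h replicate 3 (0.14 and 0.12), and each also without other single libraries. The values at 24 h were 0.61 for Fkbp4, 0.56 for Hsp90ab1, 0.54 for Hsp90aa1, 0.13 for Stip1 and -0.16 for Cdc37. The call of Stip1 at 24 h was lost with library size alone (0.048) and without WT DMSO replicate 2 (0.11). Fkbp4 was the only member with responses of opposite sign at 24 h, -0.51 in the WT cells and 0.10 in the Nrf1-KO cells, though upper-quartile scaling and library size alone made the second of these negative. With 3 libraries in each group, no group was tested for single libraries far from the rest.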

How the results depend on the processing

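Over 88 log2 fold changes of the members and 25 alternatives each, 2127 of 2200 values kept the direction and the side of the threshold, 32 lost the call, 20 gained one and 21 changed sign. Library size alone and upper-quartile scaling moved the median of all genes by -0.13 and -0.11 for WT at 6 h and by -0.18 and -0.11 for Nrf1-KO at 24 h, and the members' values moved with it. The share of higher genes among all called in the WT cells at 6 h went from 49.6% to 35.4% with library size alone. Sign changes were those of Ahsa1 in the interaction at 24 h (-0.053 with library size alone, -0.017 to 0.064 when 1 library was left out), of Stip1 between the lines at 24 h (0.029 with upper-quartile scaling, 0.0052 with no expression filter, 0.0021 with the compared groups only, 0.0012 with DESeq2 and -0.019 to 0.024 when 1 library was left out), of Cdc37 in the Nrf1-KO cells at 6 h (-0.0017 and -0.040 with upper-quartile scaling and library size alone), of Chordc1 between the lines in DMSO (-0.0084 to -0.0057) and at 24 h (0.016) when 1 library was left out, and of Fkbp4 in the Nrf1-KO cells at 24 h (-0.0093 and -0.083). The cause was not tested.

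Counts of called genes that stayed within a set ratio of the main count are not listed here. Such a smaller shift was the loss of both Ahsa1 and Chordc1 from the positive interactions at 6 h, without WT DMSO replicate 2 or WT 6 h replicate 3. With a minimum fold of 2, the counts of members were 0 lower in the WT cells at 24 h, 0 higher and 1 lower from 6 h to 24 h, 5 higher in the Nrf1-KO cells at 24 h, 0 higher and 2 lower from 6 h to 24 h there, and 0 in both directions between the lines in each treatment and in both interactions. Of the 26 other HSP90 machinery genes tested, 3 were then higher and 0 lower for WT at 6 h (3.98% and 5.65% of all genes) and 3 and 2 for WT at 24 h (10.5% and 14.5%). For Nrf1-KO they were 3 and 0 at 6 h (3.30% and 4.26%) and 2 and 2 at 24 h (11.5% and 15.2%). The counts at 24 h were near or below the shares of all genes. Both interactions gave 0. The other heat shock genes gave 0 higher and 1 lower in the interaction at 6 h (1.21% and 1.57%) and 3 and 0 at 24 h (4.07% and 4.53%). Counts under the alternatives that follow describe stability only and are given without such shares. Library size alone gave 1 member lower in the Nrf1-KO cells at 24 h, 2 higher between the lines in DMSO, 2 lower in the interaction at 24 h, 2 other machinery genes higher in that interaction and 2 other heat shock genes lower in the interaction at 6 h. Upper-quartile scaling gave 1 member lower between the lines at 24 h, and for the other heat shock genes 1 lower for WT at 24 h, 2 lower in the interaction at 6 h and 3 lower at 24 h. No expression filter and the compared groups only also gave 1 member lower between the lines at 24 h. When 1 library was left out, members higher in DMSO between the lines ranged from 0 (without WT DMSO replicate 3) to 1, members lower between the lines at 24 h from 1 (Ptges3 lost, without WT DMSO replicate 1, any WT 6 h replicate, WT 24 h replicate 2 or 3, or Nrf1-KO 24 h replicate 1 or 2) to 2, and members lower in the interaction at 6 h from 1 to 2 (Ptges3 gained, without WT DMSO replicate 1, WT 6 h replicate 1 or 3, Nrf1-KO 6 h replicate 3 or any Nrf1-KO 24 h replicate). The other heat shock genes lower ranged from 2 (without WT DMSO replicate 3, Nrf1-KO DMSO replicate 2 or Nrf1-KO 6 h replicate 2) to 4 in the interaction at 6 h and from 3 (without Nrf1-KO 24 h replicate 1) to 5 at 24 h. The rise of Fkbp4 in the Nrf1-KO cells at 24 h was lost with no expression filter (0.050), with the compared groups only (0.062) and without any of 7 single libraries (0.048 to 0.080), namely WT DMSO replicate 1, any WT 6 h replicate, Nrf1-KO DMSO replicate 3 and Nrf1-KO 24 h replicate 2 or 3. Ahsa1 between the lines at 24 h passed the test without Nrf1-KO 24 h replicate 1 (0.11) and Chordc1 without Nrf1-KO 24 h replicate 3 (-0.092).

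Replicate numbers gave little sign of pairing the samples. Same-numbered libraries deviated together with a mean r of 0.025 over 45 pairs, with 7 pairs over 0.1 and the highest at 0.171. Differently numbered pairs were not set beside them, so this does not show that the samples were unpaired. With the replicate number as a block, 8 members were still higher in the WT cells at 6 h, and 177 of 177 results were taken as unchanged. For log2 fold changes this means that the direction and the side of the threshold were kept. For counts of called genes it means only that they stayed equal to the main count or within a set ratio of it. The alternatives for the 43 values of genes outside the members were added after seeing the data, and only Unc45a lost its call, under 6 of them. Each group has 3 libraries, so the ratio tests could not pass 0.1, and the counts cannot show whether protein followed RNA.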

Other observations

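The balance of reads between the HSP90 pair and the 6 co-chaperones among the members moved as well. Other co-chaperones were not part of this measure, and reads were not corrected for transcript length. For every 100 reads on the HSP90 pair there were 22.1 ± 0.464 (SD, n = 3) reads on the 6 co-chaperones in WT DMSO, 17.2 ± 0.217 after 6 h of CFZ and 14.5 ± 0.0827 after 24 h. Nrf1-KO libraries had 24.0 ± 0.319, 17.0 ± 0.120 and 11.0 ± 0.227. The lines overlapped at 6 h and lay apart in DMSO and at 24 h, where the lowest values of all were those of the Nrf1-KO libraries. The measure was chosen after the levels had been seen, and no test was made on it.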
